A study of Mus musculus with 2 samples.

Results

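The levels of 49 keratin genes, every gene whose symbol is Krt followed by digits alone, were described among 31053 annotated genes in the gingival epithelium of mice. Of the 49, 26 encode type I and 23 type II chains. The symbol rule leaves out 4 genes that end in a letter, and of these Krt6a and Krt6b are given beside Krt16 and Krt17 as their partners.

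Keratins are the intermediate filament proteins of epithelial cells, and a filament forms only when an acidic (type I) chain pairs with a basic or neutral (type II) chain. Stratified epithelia switch pairs as cells leave the basal layer: Krt5 and Krt14 make the basal filaments, Krt1 and Krt10 those of cornifying layers, Krt4 and Krt13 those of non-cornifying oral mucosa, and Krt76 and Krt24 are made above the basal layer of oral and other stratified epithelia. Krt16 and Krt17, with their type II partners Krt6a and Krt6b, are the keratins that keratinocytes switch on at wounds and during hyperproliferation. Krt7, Krt8, Krt18 and Krt19 are the keratins of simple and glandular epithelia.

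The study profiled single cells of periodontal tissue from wild-type C57BL/6 mice aged 8 weeks, either untreated (control) or with ligature-induced periodontitis (LIP), in which a silk thread tied around a molar causes gum inflammation and bone loss. The LIP cells were collected 7 days after the ligature was placed and were pooled from 5 mice, and the number of control mice is not given in the sources used here. Gingiva and material scraped from the alveolar bone surface were digested with enzymes, and 3′ ends of transcripts were counted with unique molecular identifiers (UMIs) on the 10x Genomics system. There was 1 library per condition, so no difference between conditions had a replicate check, and no p-value is given. Intervals throughout are exact 95% intervals that cover counting error only, and they say nothing of the spread between mice.

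Cells were kept when they had 200 to 7500 genes, up to 60000 UMIs and a mitochondrial share of up to 10%, the limits the study states. By these limits 883 of 1169 control barcodes (13407122 UMIs, median 10845 per cell) and 936 of 1212 LIP barcodes (10560109 UMIs, median 5595) were kept. Clusters were built without any keratin gene and named from other markers, so that the keratins had no part in choosing the cells. The epithelial-like class held 260 control cells (29.5% of the library, 26.5 to 32.6) and 123 LIP cells (13.1%, 11.0 to 15.5), with medians of 28640.5 and 24114 UMIs. All 21 epithelial markers, such as Epcam and Cdh1, had UMIs in this class, and their summed level was 14496 UMIs per 1000000 UMIs of the class (CPM) in control and 10559 CPM in LIP.

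The epithelial-like cells fell into 5 clusters. The Fst-led cluster (83 control and 40 LIP cells) held 4 basal-layer markers, the hemidesmosome genes Col17a1, Itgb4, Itga3 and Lamb3, but 0 basal markers stood among its 10 leading genes, which included the smooth muscle gene Acta2 and the fibroblast gene Dcn, so it is named here by its leading gene. Its basal list (14 genes) summed to 3998 CPM in control and 3570 CPM in LIP, the highest of the 5 clusters. Its suprabasal list (28 genes) summed to 1295 and 1145 CPM, and Col17a1 had UMIs in all 83 control and 40 LIP cells. The summed mural list (10 genes) stood at 843.3 and 879.4 CPM in this cluster, and the osteogenic or fibroblast list (13 genes) at 944 and 1182 CPM. The cycling cluster (63 and 23 cells) held all 15 cycling markers, and also 7333 CPM of 14 neutrophil markers and 8843 CPM of 8 B cell markers in control, and 16049 CPM of 6 erythroid markers and 5667 CPM of the osteogenic or fibroblast list in LIP. Their part in the keratin levels of that cluster was not tested. A pair of clusters held suprabasal markers, and each is called by a marker among its 10 leading genes, which is not the first of them. The Tgm3-led cluster (49 and 19 cells), called by a transglutaminase that crosslinks the cornified envelope, held the markers Krtdap, Tgm3 and Elf3, while Mt3 and Barx2 came first among its leading genes. Tgm3 had UMIs in 25 of its 49 control and 3 of its 19 LIP cells. Its suprabasal list (28 genes) summed to 2441 CPM in control and 2494 CPM in LIP and its basal list (14 genes) to 2199 and 2919 CPM, so the name suprabasal-like is weak there and in LIP the basal sum was the larger. The Spink5-led cluster (42 and 11 cells), called by a protease inhibitor of the upper layers, held 6 suprabasal markers, with a suprabasal sum of 5232 and 3450 CPM and a basal sum of 1212 and 1377 CPM. The leading genes of the last cluster (23 and 30 cells) included Slpi, S100a8, S100a9 and Odam, a protein that junctional epithelium makes where the gum meets the tooth. It was left unnamed, and since 2 of the 3 genes of the junctional list were measured, the naming rule of 3 markers could not have been met for that list. It is called Odam-led here, though Slpi came first among its leading genes. Odam had UMIs in 4 of its 23 control and 13 of its 30 LIP cells. The cluster's suprabasal list summed to 5554 CPM (611 UMIs) in control and 7031 CPM (872 UMIs) in LIP, the highest of the 5 clusters. Its basal list summed to 1182 and 1677 CPM. The cluster was shallow, with medians of 1600 and 1389 UMIs against 23252 to 41511 in the other clusters. Its cells made up 8.85% of control and 24.4% of LIP epithelial-like cells. The 4 control cells with Odam were deeper, at a median of 15631 UMIs against 1600 in the other 19. In LIP the Odam-led cells also carried 28366 CPM of the neutrophil list (3518 UMIs, 11 of 14 genes, with Cxcr2, Ly6g and Mmp9 at 0), against 272.7 CPM in control. Nearly all of the LIP sum was S100a9 (2266 UMIs) and S100a8 (1209 UMIs), which are also on the keratinocyte activation list used below.

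The first base of 13 of the 20 keratins described individually was found in RefSeq's GRCm38.p6 annotation, with 14 starts, and the 150 bases before it were read from 5′ to 3′. For 3 of the 14, those of Krt14, Krt7 and the second start of Krt13, these bases lay wholly inside the gene as GENCODE vM21 gives it, so they come before an internal start and are not printed. Those of Krt8 lay partly inside its gene. All 14 starts enter the motif counts below. No start was found for Krt16 or Krt17, so the motif search did not cover these wound keratins. The 25 type I genes other than Krt18 lay together on chromosome 11 (99232761 to 100269871), and the 23 type II genes lay on chromosome 15 (101347444 to 102004482) beside Krt18 (102028180 to 102032027), the type I gene that pairs with Krt8. Printed are the bases before the starts of Krt5, for the basal layer, and of Krt13, Krt76 and Krt10, for the suprabasal keratins that were lower in LIP. Capitals mark exact matches to TATAAA, a core promoter motif. TATAAA and TGANTCA, the AP-1 motif, were searched on both strands. Near forms of TATAAA, such as the ataaaa of Krt5 and Krt13, were neither marked nor counted.
Krt5, chr15:101712906-101713055, minus strand: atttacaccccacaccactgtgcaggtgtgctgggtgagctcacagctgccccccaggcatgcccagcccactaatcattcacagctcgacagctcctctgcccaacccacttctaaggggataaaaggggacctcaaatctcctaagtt
Krt13, chr11:100121567-100121716, minus strand: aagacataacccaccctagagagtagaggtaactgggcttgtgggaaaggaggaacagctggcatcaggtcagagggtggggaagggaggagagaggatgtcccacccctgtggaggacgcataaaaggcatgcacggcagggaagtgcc
Krt76, chr15:101892921-101893070, minus strand: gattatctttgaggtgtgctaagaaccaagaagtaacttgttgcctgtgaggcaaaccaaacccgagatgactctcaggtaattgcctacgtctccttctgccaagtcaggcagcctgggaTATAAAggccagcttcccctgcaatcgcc
Krt10, chr11:99389365-99389514, minus strand: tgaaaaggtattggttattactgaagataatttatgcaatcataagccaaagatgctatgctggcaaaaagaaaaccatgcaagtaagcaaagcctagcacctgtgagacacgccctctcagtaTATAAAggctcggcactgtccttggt
TATAAA was found in 3 of the 14 starts (21.4%), against 7.57% of 32851 mouse promoters of the same length, and TGANTCA in 1 of 14 (7.14%) against 4.24%. The TATAAA lay 29 bases before the start in Krt76 and 26 bases before it in Krt10, and the AP-1 letters belonged to the internal start of Krt13. The letters alone do not show that a factor binds there.

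Keratin transcripts were largely an epithelial measure in both libraries. Epithelial-like cells held 98.7% of the control library's and 97.7% of the LIP library's UMIs of the 49 genes, 197294 and 69087 UMIs. Their summed level was 27025 CPM in control (26906 to 27144) and 23208 CPM in LIP (23035 to 23381), a log2 ratio of LIP over control of -0.22 (-0.23 to -0.21). Krt14 alone took 51.6% of the keratin UMIs of the class, and Krt14, Krt5 and Krt13 together 80.3%. Of the 49 genes, 20 had at least 20 UMIs in epithelial-like cells, 19 had between 1 and 19, and 10 had none. Krt25, Krt26, Krt39, Krt40, Krt34 and Krt82, which are mostly keratins of hair follicles, had no UMI in any kept cell.

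The total differed more between clusters than between conditions. It was lowest in cycling cells, at 17837 CPM in control and 13973 CPM in LIP, and highest in control in the Odam-led cells (45433 CPM, 35236 in LIP) and the Spink5-led cells (44567 CPM, 37107 in LIP). The Fst-led cluster stood at 25784 and 21717 CPM. In the Tgm3-led cluster the LIP value was the higher one, 29246 against 24214 CPM, and in the other 4 clusters the LIP value was the lower.

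**Figure D1:**
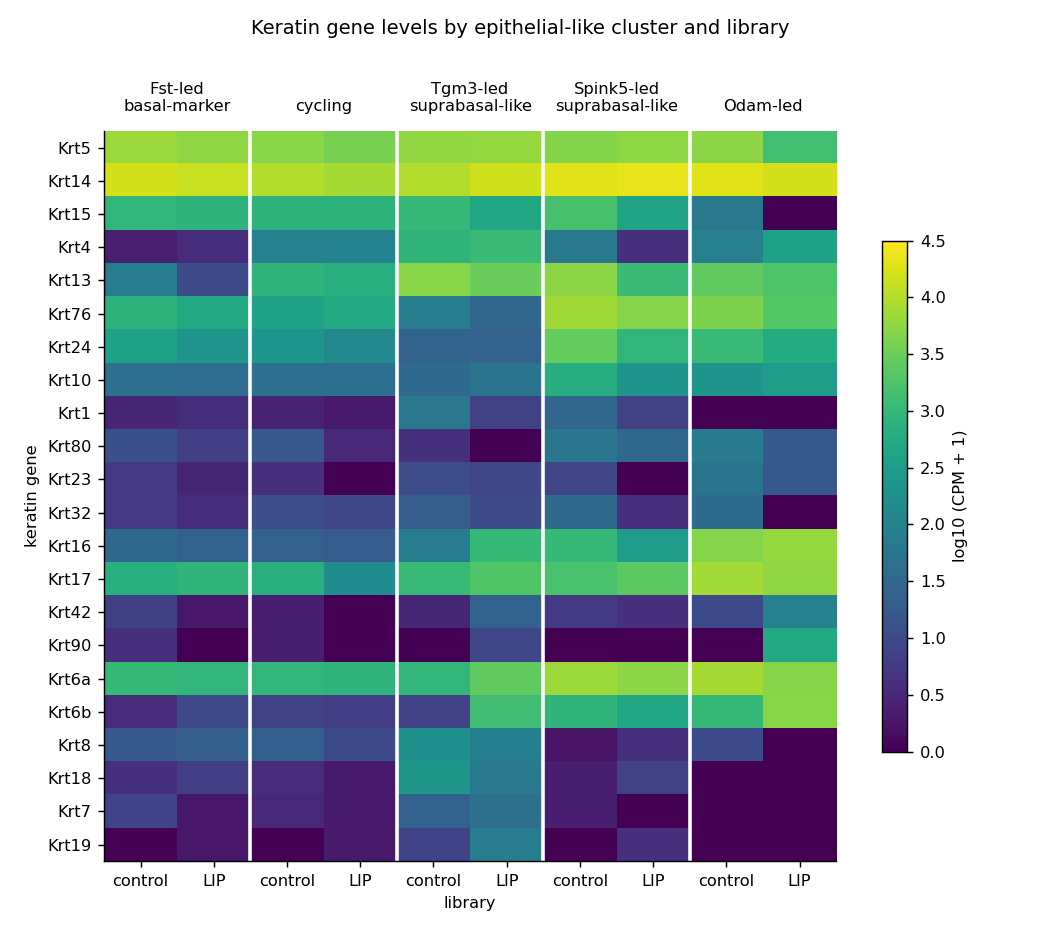
Heat map of the level of 22 keratin genes (rows) in each epithelial-like cluster of each library (columns), as log10 of CPM + 1, where CPM is a gene's UMIs per 1000000 UMIs of the cluster. Krt14 and Krt5 are high in every column, Krt4 in the Tgm3-led cluster, and Krt76 and Krt24 in the Spink5-led cluster. Krt13 is high in both the Tgm3-led and the Spink5-led cluster (4920 and 5171 CPM in control), and the Odam-led cluster holds 2527 CPM in control and 1790 CPM in LIP. Krt16 and Krt17 are high in the Odam-led cluster.

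Between conditions, over all epithelial-like cells, the basal pair differed little, while several keratins of the upper layers were lower in LIP and wound keratins were higher or similar. A gene was compared when it had at least 50 UMIs over both conditions, and 20 members were. Of these, 3 were at least 2-fold higher in LIP (Krt90, Krt19 and Krt42), against 3.65% of 9970 genes compared, and 8 were at least 2-fold lower (Krt1, Krt10, Krt13, Krt18, Krt23, Krt24, Krt32 and Krt80), against 1.48% of those genes. The median log2 ratio was -0.69 over the 20 members and 0.00 over the 9970 genes. Several of these differences sat in a few cells, as given below for each gene. Since the libraries differ in cells per cluster, a lower level over all epithelial-like cells cannot be told apart from fewer cells of the cluster that makes the keratin, and so the values are also given within each cluster.

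**Figure D2:**
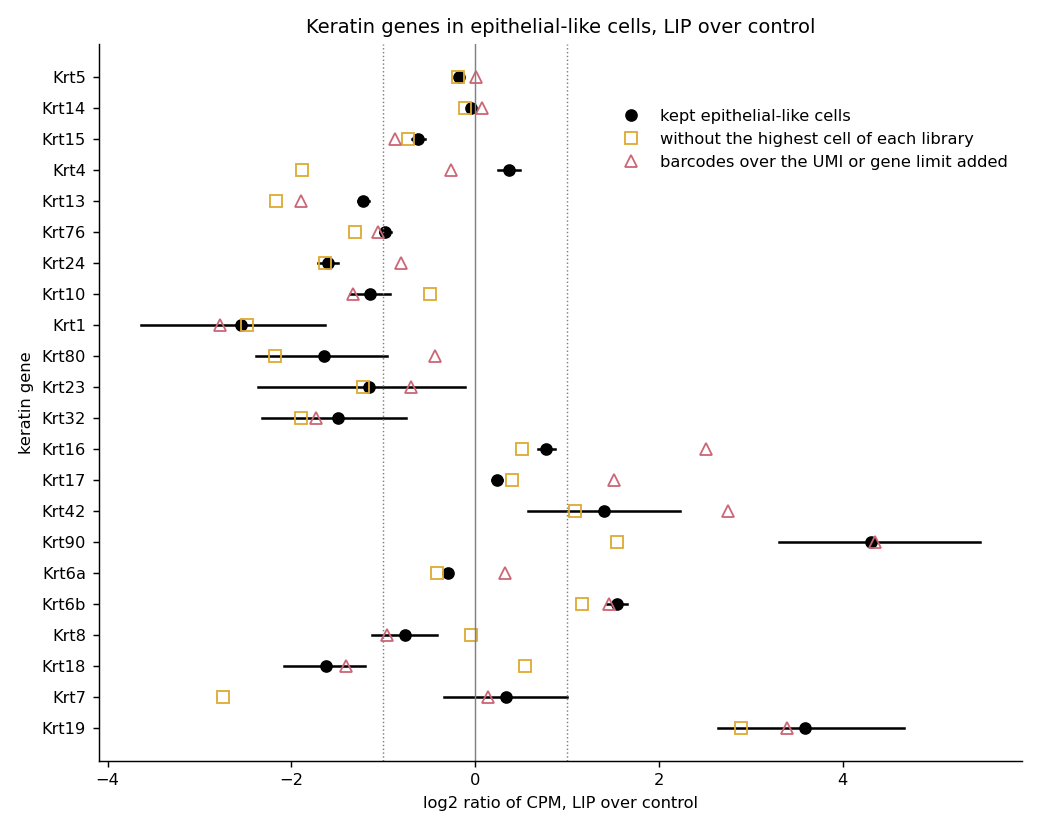
Log2 ratio of the level in LIP over control epithelial-like cells for each named keratin, with its 95% counting interval (black), without the highest cell of each library (yellow squares) and with the barcodes over the depth limits added (red triangles); dotted lines mark 2-fold. In the kept cells Krt14, Krt5, Krt16 and Krt17 lie inside the lines and Krt13, Krt24 and Krt10 below them, while Krt10 moves inside to -0.49 without the highest cells and Krt24 to -0.81, Krt16 to 2.51 and Krt17 to 1.51 with the over-limit barcodes.

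Krt14, the basal type I chain, stood at 13501 CPM in control and 13091 CPM in LIP over the class, a log2 ratio of -0.04 (-0.06 to -0.03). Krt5, its type II partner, stood at 5623 and 4994 CPM, a log2 ratio of -0.17 (-0.20 to -0.14). Neither gene was limited to the Fst-led cluster. Krt14 was at 16057 and 13427 CPM there and at 19608 and 21537 CPM in the Spink5-led cluster. Krt5 was at 6731 and 5714 CPM in the Fst-led and at 4715 and 5363 CPM in the Spink5-led cluster. Spink5-led cells also held basal markers, with Col17a1 UMIs in 40 of 42 control and 10 of 11 LIP cells. The Col17a1 level there was 205.1 and 205.4 CPM, against 1257 and 1100 CPM in the Fst-led cluster. Every one of the 83 control and 40 LIP Fst-led cells held UMIs of both Krt5 and Krt14. After each cell was thinned to 1000 UMIs, 92.1% of 254 control and 88.5% of 113 LIP epithelial-like cells had a Krt14 UMI (96.2% and 94.3% before thinning), against 10.9% of neutrophil-like cells in each library, which gives the level that free RNA can reach. The neutrophil-like cells had median depths of 7005 and 3877.5 UMIs, and 6 control and 10 LIP epithelial-like cells were too shallow to thin.

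Krt5 and Krt14 together were lower in the suprabasal-like than in the Fst-led cluster in control, from 22788 to 19750 CPM (log2 ratio -0.21, -0.22 to -0.19). In LIP they were higher in the suprabasal-like clusters, 23109 against 19141 CPM (0.27, 0.24 to 0.30). The opposite sign came from the Tgm3-led cluster, which stood at -0.56 against the Fst-led cluster in control and 0.15 in LIP. The Spink5-led cluster was above the Fst-led cluster in both libraries, at 0.09 and 0.49. For the suprabasal-like clusters summed, the opposite sign was lost at resolution 0.3 for all cells, where the LIP value was -0.01. That LIP value was 0.15 without the highest cell of each cluster. Where layers were instead set by each cell's basal and suprabasal marker sums, the control value was 0.11. In the Tgm3-led cluster Krt14 was at 9575 CPM in control and 15155 CPM in LIP (0.66), with 2801 of 9575 LIP UMIs in 1 cell. Krt5 was similar there, at 5932 and 6084 CPM.

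Within the Odam-led cluster the balance of the pair differed between libraries. All 16 LIP cells with Krt5 also held Krt14, and in control 14 did and 2 did not. Krt14 without Krt5 was seen in 10 LIP and 5 control cells. The rank correlation across cells was 0.42 in control and 0.51 in LIP, against 0.44 and 0.47 over the class. Krt14 was at 19398 CPM in control and 16207 CPM in LIP, while Krt5 was at 5300 CPM (583 UMIs) in control and 1363 CPM (169 UMIs) in LIP, a log2 ratio of -1.96 (-2.22 to -1.71). Krt14 UMIs per Krt5 UMI were 3.66 in control and 11.9 in LIP, against 1.61 to 4.16 in the other clusters. The median log2 ratio over the 528 genes compared in this cluster was -0.53. In control, 263 of the 583 Krt5 UMIs came from 1 cell, and in LIP 949 of the 2010 Krt14 UMIs did. The 4 control cells with an Odam UMI held 488 of the 583 Krt5 UMIs. Over the class, 243 of 260 control and 102 of 123 LIP cells held both transcripts, and the ratio was 2.40 and 2.62.

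Krt15, a type I keratin of basal cells, stood at 1023 CPM in control and 665.8 CPM in LIP (log2 ratio -0.62, -0.69 to -0.55). In the Fst-led and cycling clusters it was close between conditions, at 924.5 and 821.3 CPM and at 795.7 and 795.9 CPM. It was lower in LIP in the Tgm3-led cluster, 482.7 against 1036 CPM (-1.10), and in the Spink5-led cluster, 420.5 against 1570 CPM (-1.90, -2.17 to -1.65). Of the 131 Spink5-led LIP UMIs, 97 came from 1 cell. Every Krt15-positive epithelial-like cell also held Krt5, as did most cells without Krt15 (69 with and 11 without in control, 38 and 18 in LIP).

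Krt13, the type I chain of non-cornifying oral epithelium, was the most abundant of the 8 keratins that were at least 2-fold lower in LIP. It stood at 2375 CPM in control and 1021 CPM in LIP, a log2 ratio of -1.22 (-1.27 to -1.16). The Fst-led cluster held little of it, 79.7 CPM (159 UMIs) in control and 9.69 CPM (10 UMIs) in LIP. The Tgm3-led cluster held 4920 and 2955 CPM, and the Spink5-led cluster 5171 and 1155 CPM (-2.16, -2.32 to -2.01). The Odam-led cluster held 2527 CPM in control and 1790 CPM in LIP, above the Spink5-led cluster in LIP. The cycling cluster held 852.2 and 662.5 CPM. Single cells carried much of the LIP signal: 51.7% of all LIP Krt13 UMIs of the class, and 1573 of 1867 in the Tgm3-led cluster, were in 1 cell. Without the highest cell of each library the class ratio was -2.17, and as a mean over cells, in which shallow cells weigh as much as deep ones, it was -0.05. It was -0.93, inside 2-fold, without the cells that hold an Odam UMI. A Krt13 UMI was found in 65.4% of control and 39.8% of LIP cells, and in 35% and 19.5% after thinning to 1000 UMIs, against 1.82% and 0.965% of neutrophil-like cells. The median cell in the Tgm3-led cluster held 2435 CPM in control and 22.7 CPM in LIP, so that most LIP cells of the cluster were far below most control cells.

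Krt4, its type II partner, was mostly a transcript of the Tgm3-led cluster, at 875 CPM in control and 1174 CPM in LIP, against 1.5 CPM (3 UMIs) and 2.91 CPM (3 UMIs) in the Fst-led cluster. Of 742 LIP UMIs there, 721 were in the 1 cell that also carried most of the Krt13. Over the class Krt4 was at 227.8 and 295.3 CPM (log2 ratio 0.37, 0.25 to 0.49), and at a log2 ratio of -1.88 without the highest cell of each library, the opposite direction. Krt13 UMIs per Krt4 UMI were 10.4 in control and 3.46 in LIP over the class. In control, 32 of the 49 Tgm3-led cells held both, 10 held Krt13 without Krt4 and 4 held Krt4 without Krt13. The pair was uncoupled in the Spink5-led cluster, where 41 of 42 control cells held Krt13 and 5 held Krt4, a ratio of 78.

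Krt76 and Krt24 marked the other suprabasal-like cluster. Krt76, a type II keratin of palate and gingiva, stood at 7312 CPM in control and 4811 CPM in LIP in the Spink5-led cluster (log2 ratio -0.60) and at 77.0 and 30.1 CPM in the Tgm3-led cluster. Relative to the Fst-led cluster it was higher in Spink5-led cells by a log2 ratio of 3.18 in control and 3.16 in LIP, and lower in Tgm3-led cells, at -3.39 and -4.17. Krt24, a type I keratin, stood at 2694 and 899 CPM in the Spink5-led and at 26.5 and 25.3 CPM in the Tgm3-led cluster. Of the epithelial-like clusters, the Odam-led cluster came next for both, with Krt76 at 4200 and 2056 CPM and Krt24 at 1136 and 597 CPM. Over the class, Krt76 was lower in LIP by a log2 ratio of -0.98 (-1.04 to -0.92), from 1851 to 940.6 CPM, just inside the 2-fold line, and Krt24 by -1.60 (-1.71 to -1.49), from 725 to 239.5 CPM. As a mean over cells those ratios were -0.05 and 0.00, and with the over-limit barcodes added that of Krt24 was -0.81. Krt76 passed 2-fold in 7 of 16 alternatives, with a lowest value of -1.68.

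Krt10 and Krt1, the cornifying pair, were minor keratins here. Krt10, the type I chain, stood at 158 CPM in control and 71.9 CPM in LIP (log2 ratio -1.14, -1.36 to -0.93), and 51.3% of its control UMIs came from 1 Spink5-led cell, without which and the highest LIP cell the ratio was -0.49, inside 2-fold. As a mean over cells the ratio was 1 on the log2 scale, the opposite direction. Krt1, the type II chain, had 144 UMIs (19.7 CPM) in control and 10 UMIs (3.36 CPM) in LIP, of which 93 control UMIs were in the Tgm3-led and 43 in the Spink5-led cluster. Krt10 UMIs outnumbered those of Krt1 by 8.02 to 1 in control and 21.4 to 1 in LIP. Krt10 shared a cell with Krt1 in 13 of 260 control and 6 of 123 LIP cells. It shared a cell with Krt76, a type II chain high in the Spink5-led cluster, in 134 and 46. Krt76 reached many more cells than Krt1, so these counts do not compare pairing. In control, 6 cells held Krt1 without Krt10 and 61 held Krt76 without Krt10. The rank correlation across control cells was 0.04 for Krt10 with Krt1 and 0.19 with Krt76. Krt78, Krt84 and Krt36 had 10 UMIs or fewer each.

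The 5 suprabasal keratins Krt1, Krt4, Krt10, Krt13 and Krt76 summed to 4632 CPM in control and 2332 CPM in LIP over the class, a log2 ratio of -0.99 (-1.03 to -0.95). Their sum was higher in the suprabasal-like than in the Fst-led cluster by a log2 ratio of 3.34 in control (9450 against 934.5 CPM, interval 3.27 to 3.41) and of 3.03 in LIP (4869 against 594.7 CPM, interval 2.91 to 3.16). The LIP layer difference was 2.23 without the highest cells, and 0.35 where the mitochondrial limit was 5%. Within clusters the LIP sum was lower in Spink5-led cells (6188 against 13206 CPM, -1.09) and Tgm3-led cells (4218 against 5966 CPM, -0.50). It was also lower in Fst-led cells (594.7 against 934.5 CPM, -0.65) and Odam-led cells (4515 against 7027 CPM, -0.64). In cycling cells the sum was nearly the same, 1341 CPM in LIP against 1364 CPM in control (-0.03, -0.12 to 0.07).

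Within the Fst-led cluster, 0 of 10 compared members were at least 2-fold higher in LIP (0.817% of 6118 genes) and 1, Krt13, was at least 2-fold lower (1.31%). In cycling cells 0 of 11 were higher (3.27% of 6733 genes) and 2, Krt17 and Krt8, lower (2.55%). In the Tgm3-led cluster 2 of 15, Krt16 and Krt19, were higher (4.79% of 4902 genes) and 5, Krt1, Krt8, Krt15, Krt18 and Krt76, lower (2.9%). In the Spink5-led cluster 0 of 12 were higher (3.15% of 4006 genes) and 7, Krt4, Krt10, Krt13, Krt15, Krt16, Krt24 and Krt32, lower (3.02%). In the Odam-led cluster 2 of 10, Krt4 and Krt90, were higher (16.3% of 528 genes) and 2, Krt5 and Krt76, lower (20.5%). The members' share stood furthest above the background in the Spink5-led cluster, in the lower direction, where 11 LIP cells gave the values and the median log2 ratio was -1.57 over the members and 0.11 over all genes compared.

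Krt16 and Krt17, the type I wound keratins, were highest in the Odam-led cluster of both libraries. Krt16 stood there at 4863 CPM in control and 6257 CPM in LIP, against 31.6 and 24.2 CPM in the Fst-led cluster, and Krt17 at 7418 and 5620 CPM, against 669 and 867 CPM. Their sum was higher in Odam-led than in Fst-led cells by a log2 ratio of 4.13 in control and 3.74 in LIP. Between conditions the sum in Odam-led cells was nearly the same, 12281 and 11877 CPM (-0.05), while the share of such cells among epithelial-like cells was 8.85% and 24.4%. In control, 323 of the 535 Krt16 UMIs and 425 of the 816 Krt17 UMIs of the cluster each came from 1 cell. The 4 control cells with an Odam UMI held 349 of these Krt16 and 711 of these Krt17 UMIs. Krt16 stood at 4896 CPM in them and 4803 CPM in the other 19 control cells, and Krt17 at 9974 and 2711 CPM.

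Over the class, Krt16 stood at 307 CPM in control and 525 CPM in LIP (log2 ratio 0.77, 0.68 to 0.87), Krt17 at 1045 and 1231 CPM (0.24, 0.18 to 0.29), and their sum at 1352 and 1757 CPM (0.38, 0.33 to 0.43). A Krt16 UMI was found in 30.8% of control and 44.7% of LIP cells, and in 8.66% (5.51 to 12.8) and 19.5% (12.6 to 28) after thinning, against 0% and 1.29% of neutrophil-like cells. The class ratio rested on a minority of cells. Leaving out the cells with an Odam UMI (4 of 260 in control, 26 of 123 in LIP) put the sum at -0.27 and Krt16 at -0.23, the opposite direction, and leaving out the whole Odam-led cluster put the sum at 0.15. A finer clustering of all cells (resolution 0.3), which moved 54 control and 44 LIP epithelial-like cells into unnamed clusters, put the sum at -0.58, with Krt16 at -2.15 and Krt17 at -0.31. As a mean over cells Krt16 was at 1.96 and Krt17 at 1.11.

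The clusters did not share 1 direction for Krt16. In Tgm3-led cells it was at 80.9 CPM (125 UMIs) in control and 1027 CPM (649 UMIs) in LIP, a log2 ratio of 3.67 (3.39 to 3.95), with 522 of the 649 LIP UMIs in 1 cell and 221.6 CPM in LIP without it. In Spink5-led cells it was at 1024 and 311 CPM, a log2 ratio of -1.72 (-2.03 to -1.42), with 425 of the 1468 control UMIs in 1 cell. Krt17 was higher in LIP in both, 1920 against 1097 CPM and 2337 against 1632 CPM, and lower in cycling cells, 152 against 650 CPM (-2.10, -2.37 to -1.84). Of the Spink5-led control Krt17 UMIs, 1483 of 2340 were in 1 cell. In Tgm3-led cells the 3 highest held 1068 of 1696 control and 1031 of 1213 LIP Krt17 UMIs. In Spink5-led cells they held 2202 of 2340 and 694 of 728. Without the highest cell, LIP was still above control, at 1403 against 807.1 CPM and 1252 against 616.3 CPM. The 12 Tgm3-led LIP cells without an Odam UMI stood at 25.4 CPM of Krt16 and 101.7 CPM of Krt17, both below control.

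Inside the Tgm3-led LIP cluster the wound keratins and Krt13 were largely in different cells, divided by whether a cell held an Odam UMI, a division chosen after the values were seen. The 7 of 19 cells with Odam held 2304 CPM of Krt16, 4238 CPM of Krt17, 2995 CPM of Krt6b and 3.60 CPM (1 UMI) of Krt13. The 12 without held 25.4, 102, 45.2 and 5270 CPM of the same genes. Much of this came from 1 cell on each side: 522 of the 640 Krt16 and 777 of the 832 Krt6b UMIs of the 7 cells, and 1573 of the 1866 Krt13 UMIs of the 12. Without the highest cell for each gene, Krt16 stood at 538.6 CPM in the 6 remaining cells with Odam, Krt17 at 3267 CPM and Krt6b at 251 CPM, and Krt13 at 960.4 CPM in those without. Basal keratins were present in both kinds, with Krt14 at 20889 and 10657 CPM and Krt5 at 7175 and 5228 CPM. In the Odam-led LIP cluster, the 13 cells with Odam had 0 Krt13 UMIs (at most 42.9 CPM by the interval) and the 17 without had 5839 CPM, while Krt16 and Krt17 were present in both, at 4500 and 6756 CPM with Odam and 10231 and 3051 CPM without. No Tgm3-led control cell had an Odam UMI.

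**Figure D3:**
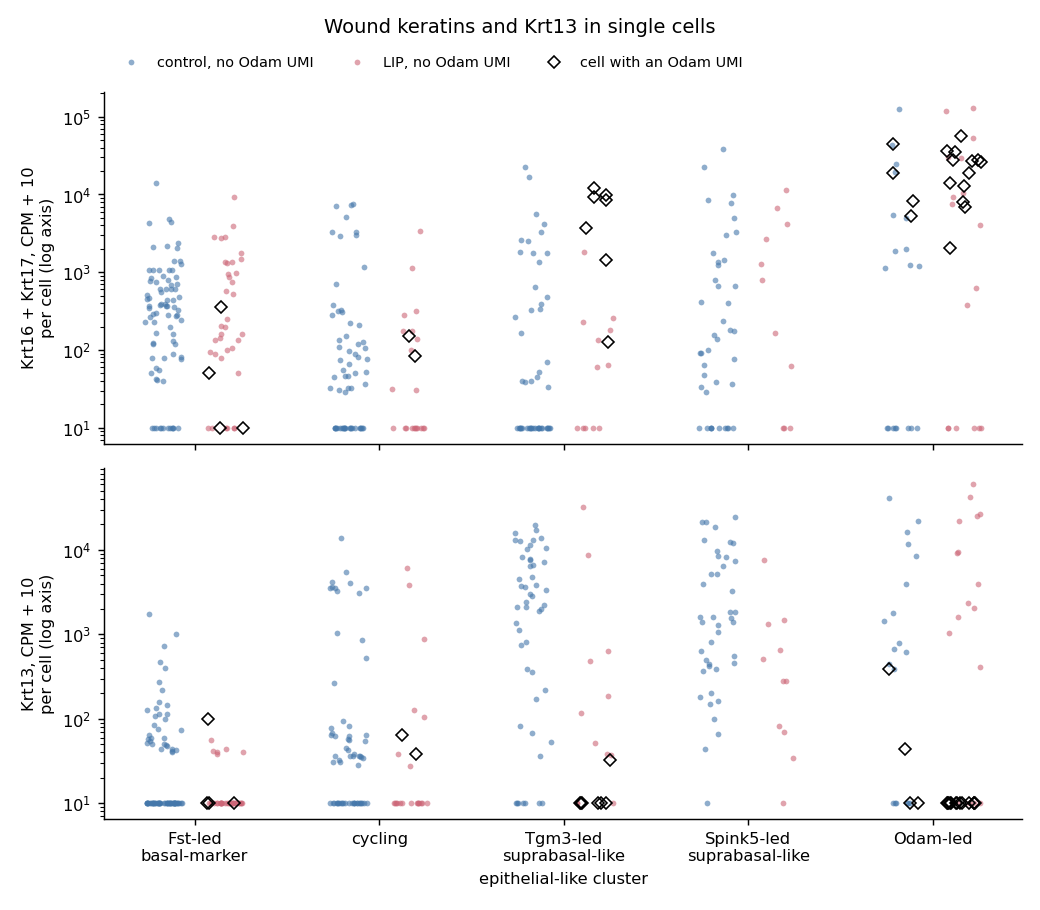
Level of Krt16 plus Krt17 and of Krt13 in single epithelial-like cells, as CPM of the cell + 10 on a log axis, by cluster and library, with cells that hold an Odam UMI drawn as diamonds. All but 1 of the 7 Tgm3-led LIP diamonds sit among the highest cells of that cluster for Krt16 plus Krt17, and the 13 Odam-led LIP diamonds have no Krt13.

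The type II wound partners, which lie outside the symbol rule, differed from each other. Krt6a stood at 2261 CPM in control and 1847 CPM in LIP over the class (log2 ratio -0.29, -0.34 to -0.25, but 0.36 as a mean over cells and 0.32 with over-limit barcodes), and was present in 223 of 260 control and 107 of 123 LIP cells. Krt6b stood at 190 and 553 CPM (1.54, 1.44 to 1.65), in 41 of 260 and 51 of 123 cells. Krt6b was higher in LIP in the Odam-led cluster, 1045 against 5064 CPM (2.28, 1.99 to 2.58), and in the Tgm3-led cluster, 6.47 CPM (10 UMIs) against 1342 CPM (848 UMIs, of which 777 in 1 cell, with 123.9 CPM without it). In the Spink5-led cluster, which held most of the control Krt6b UMIs, the LIP level was the lower one, 501 against 865 CPM (-0.79). Without the cells with an Odam UMI the class ratio of Krt6b was -0.37, the opposite direction. Their sum was nearly equal between conditions, 2450 and 2400 CPM. Krt16 was rarely seen without Krt6a, in 4 of 260 control and 1 of 123 LIP cells. Most cells without Krt16 held Krt6a too (147 with and 33 without in control, 53 and 15 in LIP). These counts therefore do not measure pairing. Krt16 UMIs per Krt6a UMI were 0.136 in control and 0.284 in LIP. The last 500 transcript bases of Krt6a and Krt6b shared no run longer than 22 bases. Krt14 and Krt17 shared the longest run of the 231 pairs checked, 71 bases, and no pair shared 91 bases, the length of read assumed for this kit.

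The simple-epithelium keratins were rare and sat in single cells. Krt8 stood at 49.6 CPM in control and 29.2 CPM in LIP, and Krt18 at 51.8 and 16.8 CPM, with both in 1 of 260 control and 4 of 123 LIP cells. In control, 1 Tgm3-led cell held 361 of the 364 Krt18 UMIs and 276 of the 282 Krt8 UMIs of its cluster. Without the highest cells, the ratios of -0.76 for Krt8 and -1.62 for Krt18 became -0.04 and 0.54, and at resolution 0.3 they were 1.48 and 2.89 and at the 5% mitochondrial limit 3.33 and 4.17. Krt19 had 11 UMIs in control and 54 in LIP (3.59, 2.64 to 4.67), of which 51 were in 1 Tgm3-led cell, and Krt7, at 7.95 and 10.1 CPM, had 28 LIP UMIs in 1 cell. By contrast all 16 control and 11 LIP salivary-like cells held both Krt8 and Krt18, with Krt18 at 942 and 895 CPM and Krt8 at 281 and 306 CPM.

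Of the remaining named keratins, Krt80, a type II keratin of differentiating epithelia, stood at 21.0 CPM in control and 6.72 CPM in LIP (-1.64, -2.39 to -0.96, and -0.44 with over-limit barcodes), with 83 of its 153 control UMIs in Spink5-led cells (57.9 and 32.1 CPM). Krt32, a hair and tongue type I keratin, stood at 16.0 and 5.71 CPM (-1.49, -2.32 to -0.75), with 50 of its 117 control UMIs in 21 Spink5-led cells. Krt23, a type I keratin, had 49 and 9 UMIs (-1.15, -2.36 to -0.11), and was inside 2-fold in 4 of 16 alternatives. Krt42, a type I keratin close to Krt16 and Krt17, had 26 UMIs in control and 28 in LIP, or 3.56 and 9.41 CPM (1.4, 0.58 to 2.23), with 26 of the LIP UMIs in the Tgm3-led and Odam-led clusters. It was at -1.47 without the cells with an Odam UMI. Krt90, a type II keratin, had 9 UMIs in control and 73 in LIP (4.31, 3.31 to 5.50), but 66 of the 73 came from 1 Odam-led cell, and the ratio was 1.54 without the highest cell of each library and 0.49 without the Odam-led cluster.

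Because filaments need equal numbers of both chain types, type I UMIs were also set against type II UMIs. UMIs measure transcripts at the 3′ end and not protein, and they were not divided by transcript length. The 49 genes gave 2.46 type I UMIs per type II UMI in control (2.44 to 2.49) and 2.68 in LIP (2.64 to 2.73). The clusters ranged from 2.18 to 2.93 with the exception of the Odam-led cluster, at 3.68 in control and 7.08 in LIP (6.47 to 7.76). With Krt6a and Krt6b counted as type II, the class stood at 1.87 and 1.94 and the Odam-led cluster at 1.93 and 2.18, beside a range of 1.62 to 2.14 in the others.

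**Figure D4:**
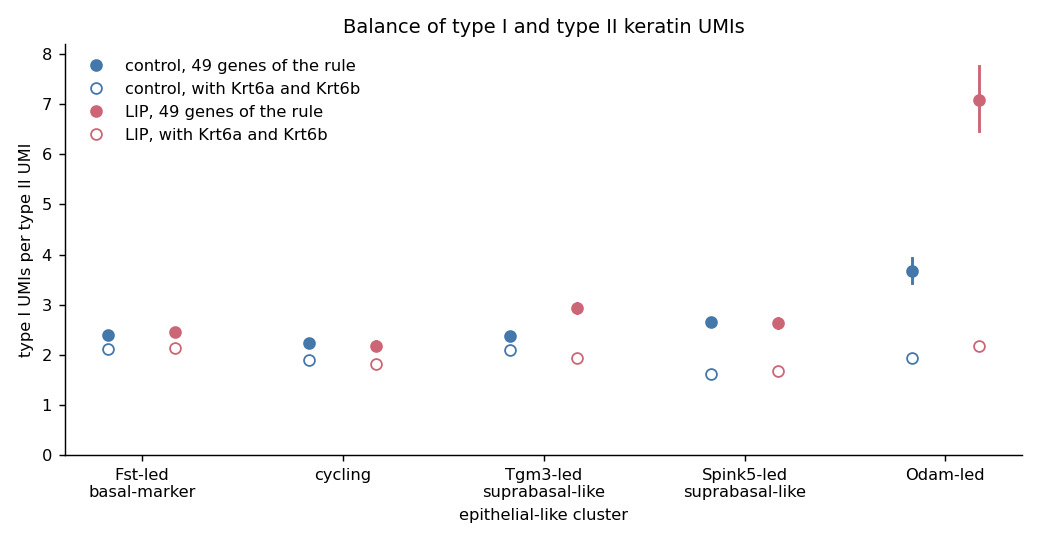
Type I keratin UMIs per type II keratin UMI in each epithelial-like cluster and library, with 95% counting intervals, for the 49 genes (filled) and with Krt6a and Krt6b counted as type II (open). The Odam-led cluster stands apart at 3.68 and 7.08 when filled and falls to 1.93 and 2.18 when open.

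The proteins that anchor keratin filaments to desmosomes and hemidesmosomes were read from a list of 22 genes. Of 20 compared in epithelial-like cells, 0 were at least 2-fold higher in LIP (3.65% of the 9970 genes) and 2 at least 2-fold lower (1.48%), with a median log2 ratio of -0.22. The lower genes were the suprabasal desmosomal cadherins Dsg1a (188 and 50.1 CPM, -1.91) and Dsg1b (32.3 and 12.8 CPM, -1.34). The hemidesmosome gene Itgb4 stood at 0.09. Of a list of 19 keratinocyte activation genes, 11 were compared, 5 were at least 2-fold higher (3.65% of the 9970 genes) and 0 lower (1.48%), with a median of 0.86 against 0.00 over all genes compared. By cluster the median of this list was -0.22 in Fst-led (6 genes) and -0.29 in cycling cells (8 genes). It was 2.74 in Tgm3-led (7 genes), 2.16 in Spink5-led (3 genes) and 6.58 in Odam-led cells (3 genes). Over all genes compared the cluster medians ran from -0.53 to 0.11. The activation list holds S100a8 and S100a9, which are also on the neutrophil list. S100a9 stood at 51.1 CPM in control and 341.9 CPM in LIP in Tgm3-led cells. It stood at 49.5 and 221.5 CPM in Spink5-led and at 190.9 and 18271 CPM in Odam-led cells. Neutrophil-like cells were 6.23% of kept control and 34.2% of kept LIP cells. The part of these genes and of neutrophil RNA in the medians was not tested. Mmp13, a collagenase, had 0 UMIs in control and 261 in LIP (87.7 CPM), but 244 of the 261 were in 8 LIP cycling cells. Mmp13 was also a leading gene of an osteogenic cluster, and the osteogenic or fibroblast list stood at 547.9 CPM in control epithelial-like cells (11 of 13 genes, Pdgfra and Ibsp at 0) and 2132 CPM in LIP (13 of 13), with 5667 CPM in the LIP cycling cells. Their part in the Mmp13 level was not tested. Sprr1a, a cornified envelope precursor, stood at 0.822 and 88.4 CPM, while the log2 ratio of Cd44 was -0.11. Of the 263 LIP Sprr1a UMIs, 151 were in 9 Odam-led cells and 104 in 4 Tgm3-led cells, and the 40 Fst-led cells had 0.

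The barcodes left out for depth held a large share of the keratin signal. In control 16 and in LIP 25 barcodes passed 60000 UMIs or 7500 genes. Of the keratin UMIs of the kept cells and these barcodes together, they held 19.2% and 38.9%. In each library 8 of them had epithelial markers above every salivary-like cell and at most 10% mitochondrial UMIs. Summed over those 8, Krt16 and Krt17 stood at 1780 CPM in control (1688 to 1875) and 18014 CPM in LIP (17724 to 18308). By barcode the sum had a lowest, median and highest value of 0, 253.3 and 6510 CPM in control and of 63.5, 20434 and 33577 CPM in LIP, so the ranges overlapped. Krt17 did not exceed 279 CPM in any of the 8 control barcodes and had a median of 5794 CPM in LIP.

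Krt13 lay the other way, at 17672 CPM in the control and 1095 CPM in the LIP barcodes, as did Krt76, at 12628 and 3040 CPM. Krt14 was close, at 18571 and 20319 CPM, and Krt5 stood at 2710 and 6751 CPM. Odam had 0 UMIs in the 8 control barcodes and UMIs in 5 of the 8 LIP barcodes. A barcode of this depth may hold more than 1 cell, and the neutrophil list ranged from 42.5 to 119178 CPM in the control and from 159 to 32024 CPM in the LIP barcodes, with medians of 87.7 and 790 CPM. Their part in these levels was not tested. With the 8 barcodes of each library added to the class, the log2 ratio of Krt16 plus Krt17 was 1.91 in place of 0.38, that of Krt17 1.51 in place of 0.24, and that of Krt4 -0.26, the opposite direction.

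**Figure D5:**
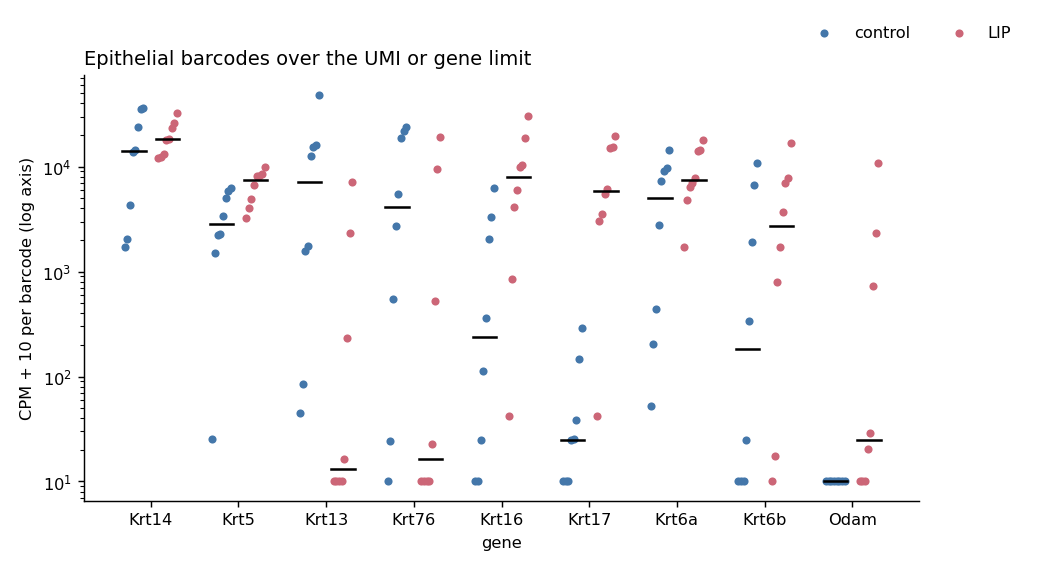
Levels of 9 genes in the 8 control and 8 LIP epithelial barcodes above the depth limits, as CPM + 10 on a log axis, with 1 point per barcode and a bar at the median. The LIP medians lie higher for Krt16 and Krt17, at 7961 and 5794 CPM against 228.6 and 15.1 CPM. The ranges of the libraries overlap for Krt16, Krt17 and Krt14.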

How the data were processed

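Live cells of periodontal tissue were loaded on the 10x Genomics 3′ v3 system. The authors deposited UMI counts per gene and barcode that were not normalized, and Cell Ranger (3.1.0 in the matrix header) and the mm10 build are named there and in the submitters' processing notes. Those counts were filtered at the limits the study states (at least 200 and at most 7500 genes, at most 60000 UMIs, at most 10% mitochondrial UMIs). Of 2 barcodes shared between the libraries, 1 was kept.

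Libraries were integrated in Seurat 5.3.0 (R 4.3.3) by canonical correlation on 2000 features without keratin genes, with 30 dimensions and resolution 0.1, and epithelial-like cells again with 20 dimensions and resolution 0.5. A cluster was named from at least 3 markers, each in at least 25% of its cells and more than 2-fold above the other cells with 10 CPM added, read against its 10 leading genes. Scrublet (scanpy 1.11.5) marked 4 control and 1 LIP cells as doublets, and these were kept. Levels are UMIs per 1000000 UMIs of a cell group (CPM). Poisson, conditional binomial and Clopper-Pearson intervals were computed in Python 3.11.15 with scipy 1.17.1 at 95%. The floor was 3 UMIs. Steps that run over many genes were checked on simulated counts.

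Members with at least 20 UMIs in epithelial-like cells are named, with the partners Krt6a and Krt6b and, because they passed 20 UMIs in another class, Krt79 and Krt83. The members and marker lists were chosen with earlier results of these data known. Alternatives were other resolutions, keratins kept in clustering, a 5% mitochondrial limit, doublets removed, other scalings and UMI minimums, means over cells, free RNA subtracted, the highest cell left out and layers set by marker sums. Further alternatives, chosen after the data were seen, were adding barcodes over the limits, leaving out the Odam-led or cycling cluster or cells with an Odam UMI, and counting Krt6a and Krt6b as type II.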

Additional observations from a re-analysis of the deposited data

Results flagged for a closer look

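Data outside the kept cells held a wound keratin signal above the level of the control library. In barcodes over the depth limits with epithelial markers, Krt16 plus Krt17 stood at 18014 CPM in LIP and 1780 CPM in control, summed over 8 barcodes in each. The difference was not tested, since each condition was 1 library, and how many cells these barcodes held is unknown.

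For Krt16, the Tgm3-led and Spink5-led clusters lay in opposite directions between LIP and control, at log2 ratios of 3.67 and -1.72. For Krt4, the Odam-led and Spink5-led clusters did, at 2.03 and -4.37, from 10 and 46 UMIs and from 95 and 1 UMIs. Neither difference was tested. Of the Krt16 UMIs, 522 of 649 in the Tgm3-led LIP cells came from 1 cell, and of the Krt4 UMIs 91 of 95 in the Spink5-led control cells did. The 12 Tgm3-led LIP cells without an Odam UMI stood at 25.4 CPM of Krt16, below the 80.9 CPM of Tgm3-led control cells.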

How the results depend on the processing

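No paired analysis was possible because each condition is 1 library. Of 140 values under the alternatives listed first, 4 turned direction and 52 moved beyond the counting interval, and of 32 under alternatives chosen after the data were seen 1 turned and 21 moved. Resolution 0.8 moved none. Scaling cannot change shares or type ratios. The cause was not tested except where fewer cells or genes enter by construction.

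The total level (-0.22) was -0.31 at resolution 0.3 for all cells, -0.20 with keratins kept in clustering, -0.37 at the 5% mitochondrial limit, -0.26 with median-ratio factors, -0.27 with TMM, 0.11 as a mean over cells (reversed), -0.26 without the highest cell, -0.04 with barcodes over the limits, and -0.24, -0.20 and -0.33 without the Odam-led cluster, the cycling cluster and cells with an Odam UMI. Krt16 plus Krt17 (0.38) was -0.58, 0.57, 1.53, 0.50, 1.91, 0.15, 0.55 and -0.27 at resolution 0.3, the 5% limit, as a mean over cells, without the highest cell, with over-limit barcodes and without those 3 sets of cells, in that order.

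The count at least 2-fold higher (3) was 6 as a mean over cells, 8 with a minimum of 1 UMI, 5 with over-limit barcodes and 1 without the Odam-led cluster or cells with Odam, and the count lower (8) was 4 as a mean over cells and 20 with a minimum of 1 UMI. The type ratio in control (2.46) was 2.43 at resolution 0.3, 2.51 as a mean over cells, 2.53 without cycling cells and 1.87 with Krt6a and Krt6b. In LIP (2.68) it was 2.39, 3.31, 2.81 and 1.94 under the same settings, 2.94 at the 5% limit, 2.58 without the highest cell, 3.11 with over-limit barcodes, and 2.55 and 2.44 without the Odam-led cluster and cells with Odam. The epithelial share (98.7% and 97.7%) was 86.9% and 78.4% at resolution 0.3, 99.2% and 97.0% at the 5% limit, 96.1% and 95% as a mean over cells, 99.5% and 99.3% with free RNA subtracted, 99.0% and 98.6% with over-limit barcodes, and 97.6% in LIP without the highest cell.

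For Krt5 plus Krt14 by layer, control (-0.21) was -0.23 with doublets removed, -0.10 with either scaling, -0.18 as a mean over cells and 0.11 with layers set by markers (reversed). LIP (0.27) was -0.01 (reversed) and 0.16 at resolution 0.3 for all and for epithelial-like cells, 0.17 with keratins kept, 0.10 at the 5% limit, 0.16 with doublets removed, 0.14 and 0.18 with median-ratio factors and TMM, 0.35 as a mean over cells, 0.15 without the highest cell, 0.37 with layers set by markers and 0.17 without cells with Odam. The suprabasal keratins by layer in control (3.34) were 3.26 at the 5% limit, 3.44 and 3.45 with the scalings and 2.92 with layers set by markers. In LIP (3.03) they were 3.59 and 3.2 at resolution 0.3 for all and for epithelial-like cells, 0.35 at the 5% limit, 3.2 with doublets removed, 2.90 with median-ratio factors, 2.23 without the highest cell, 3.74 with layers set by markers and 3.56 without cells with Odam.

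Among genes past 2-fold, Krt24 (0.00) and Krt10 (1) turned as a mean over cells, Krt18 at resolution 0.3 (2.89), at the 5% limit (4.17) and without the highest cell (0.54), and Krt42 (-1.66 and -1.47) and Krt6b (-1.43 and -0.37) at resolution 0.3 and without cells with Odam. Among genes inside 2-fold, the sign differed for Krt16 (down to -2.15), Krt17 (-0.31), Krt4 (-1.88), Krt7 (-2.74), Krt8 (up to 3.33), Krt6a (0.36), Krt14 (0.07) and Krt5 (0.01).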

Other observations

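Outside the epithelial-like class, a few keratins stood above what the other keratins of the same cells would give. Krt80 was at 57.1 CPM (39.3 to 80.2) in control and 34.0 CPM (25.3 to 44.7) in LIP macrophage-like cells, in 16 of 36 and 24 of 75 cells, which is above its level of 21.0 and 6.72 CPM in epithelial-like cells. Per Krt14 UMI it was at 0.647 and 0.718 in macrophage-like cells and at 0.00155 and 0.000513 in epithelial-like cells. Krt5 per Krt14 UMI, by contrast, was 0.416 and 0.381 in epithelial-like cells and 0.308 in LIP neutrophil-like cells, a similar ratio.

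Krt83, a hair keratin, was at 38.7 CPM (21 UMIs in 9 of 55 cells) in control and 40.8 CPM (66 UMIs in 28 of 320 cells) in LIP neutrophil-like cells. Reads shared with its close copies Krt81 and Krt86 were not checked, so its values are uncertain. In fibroblast-like cells Krt10 was at 41.0 and 36.2 CPM, in 37 of 120 control and 33 of 62 LIP cells, and Krt79, a type II keratin of sebaceous ducts and follicles, was at 14.2 and 13.7 CPM, in 10 of 120 and 4 of 62 cells. In salivary-like cells Krt23 was at 69.6 and 47.1 CPM and had UMIs in 16 of 16 control and 8 of 11 LIP cells, while Krt19 was at 47.4 and 11.8 CPM.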
